A study of Mus musculus with 9 samples.

Results

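The cytosolic ribosomal protein genes of sorted mouse microglia were followed across 9 arrays. They were taken by name, as every gene symbol made of Rpl or Rps and a digit together with Rpsa, Rplp0, Rplp1 and Rplp2, leaving out pseudogene symbols and the Rps6k kinases. The rule found 70 genes on 111 probe sets, among 22180 genes with a probe set of 1 symbol. Of the 70 genes, 23 encode proteins of the small subunit, 32 encode proteins of the large subunit and 3 encode the P stalk. A further 7 are paralogues of ribosomal proteins, 4 are other copies named after one, and Rps19bp1 encodes a partner of a ribosomal protein and no part of the ribosome. Of 77 ribosomal protein genes listed under these names, 58 were thus measured, 12 had only probe sets that list several symbols, and 7 had neither.

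Each of the 3 groups had 3 arrays of microglia, isolated by FACS from brains of female C57Bl/6 mice that were 24 to 28 weeks old. FAD DKO mice (FAD Hdac1/2fl/fl Cx3cr1CreERT2) carried the FAD transgenes of familial Alzheimer's disease, floxed alleles of the histone deacetylase genes Hdac1 and Hdac2, and an inducible Cre in the microglial gene Cx3cr1. FAD mice (FAD Hdac1/2fl/fl) carried the same transgenes and floxed alleles without the Cre, and wild type mice are labelled with none of these. All mice had been given 8 mg of tamoxifen, which activates the Cre, at 6 weeks. FAD DKO and FAD therefore differ in the Cre allele as well as in the deletion, and FAD and wild type differ in the floxed alleles as well as in the transgenes. The labels do not say that arrays of a group came from separate animals, so p-values measure the spread between these samples, which may be technical.

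A ribosome joins a small subunit, which reads the mRNA, to a large subunit, which forms the peptide bond, and its proteins are made in matched amounts around the ribosomal RNAs. Ribosomal protein mRNAs are among the most abundant of a cell, and in mammals most of them begin with a C and a run of pyrimidines, the terminal oligopyrimidine (TOP) motif, through which the mTOR pathway and the RNA-binding protein LARP1 control their translation. The arrays measure RNA and not translation. Several of their genes carry small nucleolar RNAs in introns, which guide the modification of ribosomal RNA.

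The start regions of 8 of the genes show what the TOP motif looks like and which of the genes described here have a pyrimidine run near the annotated start. Each is read 5′ to 3′ on the gene's strand, from 30 bases before the annotated start to the first 20 bases of the transcript, from RefSeq on GRCm38.p6. Capitals mark a run of at least 5 C or T within 5 bases of the start. They lie at chr9:120571487-120571536 on the plus strand for Rpl14, chr11:114668550-114668599 (plus) for Rpl38, chr2:39005112-39005161 (minus) for Rpl35 and chr7:141447621-141447670 (plus) for Rplp2. They lie at chr10:23787190-23787239 (minus) for Rps12, chrX:102189372-102189421 (minus) for Rps4x, chr5:107900498-107900547 (plus) for Rpl5 and chr16:10170198-10170247 (plus) for Rpl39l.
Rpl14: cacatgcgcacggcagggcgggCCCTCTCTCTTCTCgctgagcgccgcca
Rpl38: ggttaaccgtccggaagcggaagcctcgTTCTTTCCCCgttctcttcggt
Rpl35: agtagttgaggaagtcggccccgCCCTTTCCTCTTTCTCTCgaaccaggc
Rplp2: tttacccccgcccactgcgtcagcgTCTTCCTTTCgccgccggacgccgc
Rps12: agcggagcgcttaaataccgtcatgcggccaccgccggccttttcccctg
Rps4x: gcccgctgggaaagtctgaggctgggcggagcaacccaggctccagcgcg
Rpl5: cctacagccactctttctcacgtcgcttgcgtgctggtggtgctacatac
Rpl39l: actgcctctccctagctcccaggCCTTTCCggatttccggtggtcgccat
The first 4 genes had a run that crosses the start. In the paralogue gene Rpl39l the run ends just before the start, so the annotated transcript does not begin with it. Rps12, Rps4x and Rpl5 had no run within 5 bases of the start, though the bases shown for Rps12 and Rpl5 hold pyrimidine runs farther away. The table held 63 promoters of 300 bases for 54 of the 70 genes. The run stood within 5 bases of the start, on either side, in 31 of these promoters (49.2%), against 31.4% of all 32851 promoters. CCGGAAG on either strand, the core bound by ETS factors, was in 23 (36.5%) against 8.86% of all. TCTTTC on the gene's strand was in 15 (23.8%) against 11.7% of all, and the shorter CTTTC, which TCTTTC contains, in 37 (58.7%) against 34.8%. GGGCGG on either strand, the core bound by Sp factors, was in 32 (50.8%) against 35.7%. Each of these was more frequent among the ribosomal protein promoters than among all. AAGATGG on either strand, a core bound by YY1, was in 7 (11.1%) against 6.34%, and TATAAA on the gene's strand in 5 (7.94%) against 8.32%. The shares are a description, and a match is not a bound site.

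Signals are deposited log2 values, whose array medians lay between 5.346 and 5.398, and the signals of different probe sets do not compare amounts of their transcripts. Hdac1 and Hdac2 had their lowest values in the FAD DKO arrays, at 7.41 to 7.64 for Hdac1 against 8.03 to 8.19 in FAD arrays and 8.07 to 8.65 in wild type arrays. Hdac2 was at 7.61 to 7.90 in FAD DKO arrays, 8.36 to 8.56 in FAD arrays and 8.22 to 8.39 in wild type arrays, though the probes may lie outside the deleted parts. Of 12 microglial markers 11 were measured, and the log2 of their summed signal was 14.45 to 14.53 in FAD DKO, 14.55 to 14.58 in FAD and 14.63 to 14.68 in wild type arrays. The sum includes Cx3cr1, the gene that carries the Cre in FAD DKO mice. In limma its FAD DKO values differed by -0.25 from FAD (adjusted p = 0.383) and by -0.33 from wild type (adjusted p = 0.133). Of the 11 markers 6 were above 0 in FAD DKO minus FAD and 3 in FAD DKO minus wild type. In FAD minus wild type 1 was above 0 and 10 were below, with a median of -0.09. Markers of neurons, astrocytes, oligodendrocytes, endothelial cells and border macrophages had summed signals of 7.99 to 9.10 in all groups. Those of lymphocytes had 10.52 to 10.70, where Ighm alone was at 10.14 to 10.30 and the median marker signal was 4.68. Flt1, an endothelial marker, was called in limma in FAD DKO minus wild type (1.26, adjusted p = 0.00872). Values of sorted cells are bulk values, in which fewer cells of a type and less RNA per cell cannot be told apart.

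FAD microglia, set against wild type, had slightly higher signals for most ribosomal protein genes. The difference was above 0 for 56 of the 70 genes, against 47.9% of all genes tested. The median difference was 0.11 on the log2 scale, or 1.08-fold, where the median of all genes was -0.0068. In limma 0 of the 70 genes passed an adjusted p under 0.05, against 0.0406% of all genes, and the smallest adjusted p of a member was 0.319. At an unadjusted p under 0.05, 14 members were higher in FAD (4.41% of all genes) and 0 were lower (4.02% of all genes). The FAD and wild type arrays did not overlap for 11 members that were higher in FAD (6.37% of all genes) and for 0 that were lower (5.46%).

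FAD DKO microglia, also set against wild type, showed a median difference of 0.16, or 1.12-fold, where the median of all genes was 0.0041. Again 56 of the 70 genes were above 0, against 51.3% of all genes. In limma 0 members were called, against 0.14% of all genes, with a smallest adjusted p of 0.188. With a trended and robust variance model 1 member, Rpl8, was called (adjusted p = 0.043). Its FAD values were identical in all FAD arrays, which lowers the spread estimated for this gene. At an unadjusted p under 0.05, 27 members were higher in FAD DKO (3.95% of all genes) and 1, Rpl3, was lower (4.19%). The arrays did not overlap for 26 members that were higher (5.77% of all genes) and for 3 that were lower (6.15%), Rpl3, Rps4l and Rpl22l1. This comparison and the preceding one share the wild type arrays.

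FAD DKO against FAD, the comparison that bears on Hdac1 and Hdac2 in mice that carry the transgenes, gave a median difference of 0.03 over the members, where the median of all genes was 0.01. The difference was above 0 for 39 of the 70 genes, against 53.2% of all genes. In limma 0 members were called, against 0.0225% of all genes, with a smallest adjusted p of 0.35. At an unadjusted p under 0.05, 1 member was higher in FAD DKO, Rpl35 (3.69% of all genes), and 2 were lower, Rpl3 and Rpl5 (4.41%). Rpl35 turned to -0.24 in its own-chromosome probe set, whose mean signal of 4.47 lay below the array median of 5.354. In its remaining probe set, of mean signal 7.52, it was at 0.15. The arrays did not overlap for 8 members that were higher (5.38% of all genes) and for 4 that were lower (6.5%), Rpl3, Rpl5, Rplp2 and Rps4l. The members' median was 0.0105, 0.0569 and 0.0063 without FAD DKO replicates 1, 2 and 3, and 0.0562 and 0.00584 without FAD replicates 2 and 3.

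**Figure D1:**
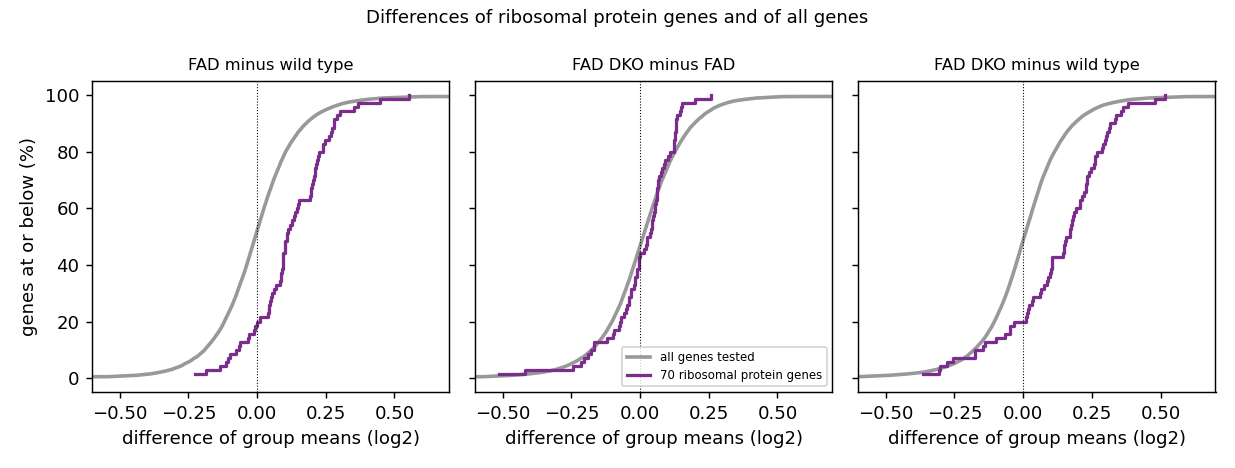
The share of genes at or below each difference of group means (log2, horizontal axis) is drawn for the 70 ribosomal protein genes and for all 22180 genes in each comparison. At its middle the ribosomal protein curve lies right of that of all genes in both comparisons with wild type (medians of 0.11 and 0.16). For FAD DKO minus FAD it lies close to that of all genes, with a median of 0.03. Toward the low end of FAD DKO minus wild type, around Rps4l (-0.30), Rps27 (-0.28) and Rpl11 (-0.25), it does not lie to the right.

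The size of both differences from wild type depended on which wild type array was looked at. The median deviation of the 70 genes from their own 9-array means was 0.085, -0.002 and 0.105 in FAD DKO arrays 1, 2 and 3, and 0.034, 0.080 and -0.006 in FAD arrays 1, 2 and 3. In wild type arrays 1, 2 and 3 it was 0.013, -0.122 and -0.185. Wild type replicate 1 thus lay among the FAD and FAD DKO arrays, while replicates 2 and 3 lay below all of them. Wild type replicate 3 was the lowest of the 9 arrays for 35 of the 70 genes and the highest for 0. The mean of the FAD DKO arrays lay above wild type replicates 1, 2 and 3 for 46, 54 and 55 of the 70 genes, by a median of 0.05, 0.17 and 0.24. For the mean of the FAD arrays the numbers were 39, 58 and 60 genes and medians of 0.01, 0.13 and 0.20.

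Leaving out single arrays moved the values of both comparisons with wild type. The FAD minus wild type median was 0.17 without wild type replicate 1 and 0.0786 without replicate 3. The 14 members at an unadjusted p under 0.05 in that comparison became 25 without wild type replicate 1, 7 without replicate 2 and 8 without replicate 3. They became 7 without FAD replicate 1 or FAD replicate 2. The difference between FAD and wild type was thus wider without wild type replicate 1 and narrower without replicate 3. For FAD DKO minus wild type the 28 members became 17 and 14 without FAD DKO replicates 1 and 3, and 15 and 12 without wild type replicates 2 and 3. Within wild type the median SD of a member was 0.137, against 0.107 over all genes. It was 0.0865 against 0.109 in FAD DKO and 0.112 against 0.106 in FAD.

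Markers of monocytes and neutrophils differed between groups and between arrays of a group. Of the 15 markers 9 were above 0 in FAD DKO minus wild type (median 0.02) and 14 in FAD minus wild type (median 0.24). In FAD DKO minus FAD 2 were above 0 (median -0.22). In limma 0 were called in each comparison. At an unadjusted p under 0.05, 1 was higher in FAD DKO and 1 in FAD than in wild type (3.95% and 4.41% of all genes). FAD DKO minus FAD had 1 lower at that p (4.41% of all genes). The log2 of their summed signal was 10.36, 12.63 and 11.84 in FAD DKO arrays 1, 2 and 3, and 11.84 to 11.91 in FAD arrays. It was 11.00, 11.78 and 11.97 in wild type arrays 1, 2 and 3. S100a8, a calcium-binding protein of neutrophils, was at 8.63, 11.39 and 10.58 in FAD DKO arrays, 10.39, 10.46 and 10.42 in FAD arrays, and 9.41, 10.46 and 10.67 in wild type arrays. Wild type replicate 1 thus had the lowest marker signal of its group and the highest ribosomal protein signal. The other groups did not show this order. FAD replicate 3 had the lowest marker signal of its group and also the lowest ribosomal protein deviation (-0.006). FAD DKO replicate 1 had the lowest marker signal of all arrays, and its ribosomal protein deviation of 0.085 was below the 0.105 of replicate 3. The part of these cells in the ribosomal protein values, and that of the microglial markers above, was not tested.

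**Figure D2:**
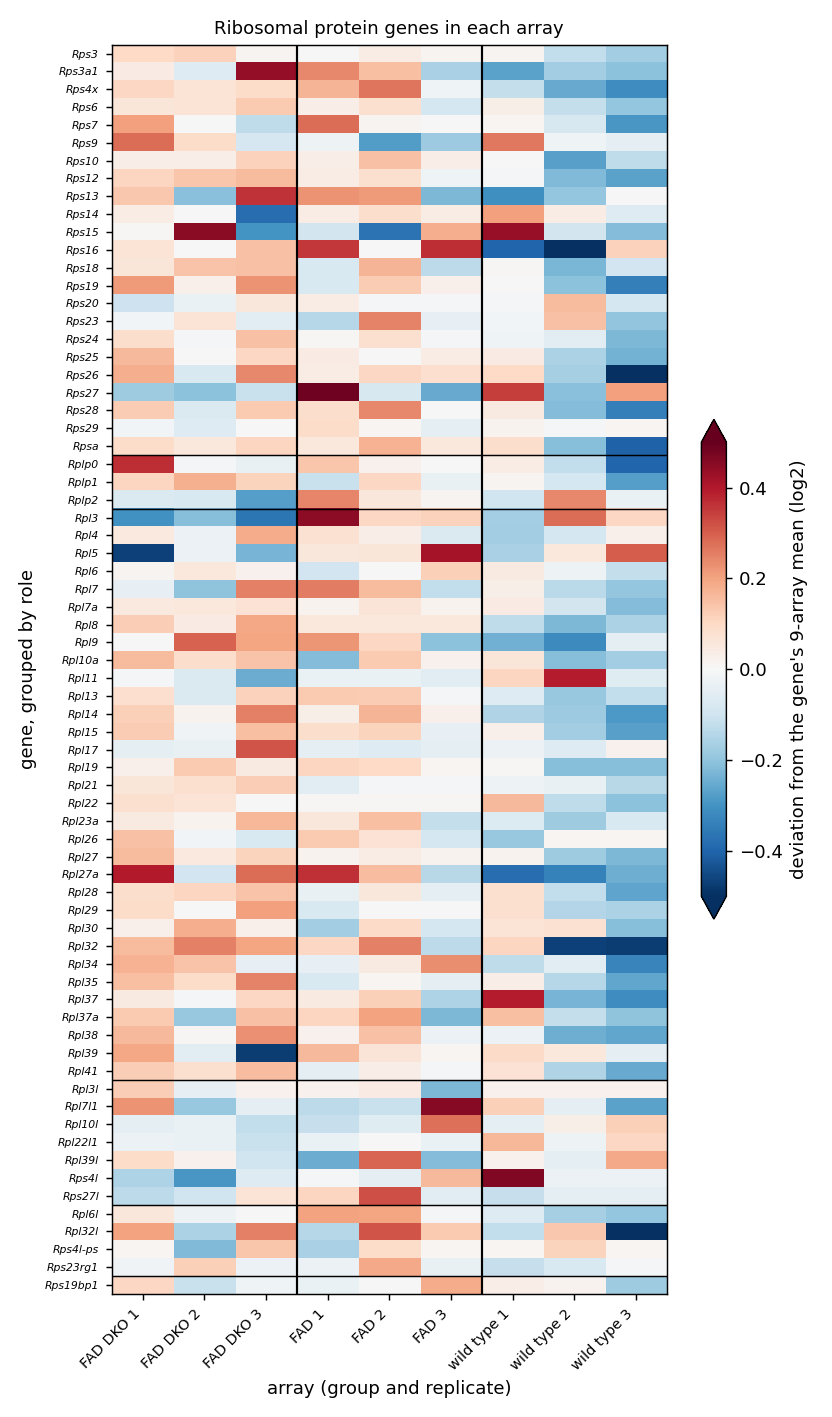
Each row is a gene, grouped by role, and each column an array of FAD DKO, FAD or wild type microglia; the colour gives the deviation from the gene's 9-array mean in log2 units. Wild type replicates 2 and 3, with median deviations of -0.122 and -0.185, are blue for most genes, and wild type replicate 1, at 0.013, is not.

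Among the 32 large subunit genes the median difference was 0.17 for FAD DKO minus wild type, 0.11 for FAD minus wild type and 0.05 for FAD DKO minus FAD, with 28, 29 and 23 genes above 0. Rpl8, whose protein lies close to the peptidyl transferase centre, had signals of 9.33, 9.25 and 9.40 in FAD DKO arrays, 9.26 in each FAD array, and 9.08, 8.98 and 9.05 in wild type arrays. Each FAD DKO and FAD array lay above each wild type array. The FAD values of Rpl8 were identical (SD 0), which lowers the spread that its SE and p-values rest on. In limma FAD DKO differed from wild type by 0.29 (SE 0.0651, adjusted p = 0.188) and FAD differed from wild type by 0.22 (adjusted p = 0.458). Rpl14, another protein of the large subunit, had 9.97, 9.87 and 10.10 in FAD DKO arrays, 9.88, 10.02 and 9.88 in FAD arrays, and 9.70, 9.67 and 9.56 in wild type arrays. The order was the same, with both groups that carry the FAD transgenes above wild type and overlapping each other. The differences from wild type were 0.34 (SE 0.0826, adjusted p = 0.247) for FAD DKO and 0.28 (adjusted p = 0.458) for FAD.

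Rpl38, which in mice is needed for the translation of certain Hox mRNAs, had 11.27, 11.12 and 11.34 in FAD DKO arrays, 11.13, 11.26 and 11.08 in FAD arrays, and 11.08, 10.87 and 10.85 in wild type arrays. Here wild type replicate 1 reached the lowest FAD array, and FAD DKO minus wild type was 0.31 (SE 0.0929, adjusted p = 0.375). Rpl27a had the widest gap from wild type of these genes, at 5.00, 4.51 and 4.89 in FAD DKO arrays, 4.97, 4.76 and 4.47 in FAD arrays, and 4.23, 4.27 and 4.36 in wild type arrays. Its differences from wild type were 0.51 (adjusted p = 0.371) for FAD DKO and 0.45 (adjusted p = 0.508) for FAD. The signal of this probe set was under 5.354, the median over the array, as were those of 10 other members, and little can be read from a difference at such signals. Rpl35, which sits near the exit of the peptide tunnel, had 10.78, 10.72 and 10.87 in FAD DKO arrays, 10.55, 10.64 and 10.58 in FAD arrays, and 10.66, 10.48 and 10.37 in wild type arrays. Every FAD DKO array lay above every other array, with a difference from FAD of 0.20 (SE 0.0865, adjusted p = 0.603). The most frequent chromosome among the identifiers around this probe set, at 45% of them, was not that of Rpl35. In the probe set at identifiers of its own chromosome, of mean signal 4.47, Rpl35 differed by -0.24. That signal is also under the median of 5.354. The remaining Rpl35 probe set, of mean signal 7.52, differed by 0.15.

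Rpl5 and Rpl11 form a complex with the 5S ribosomal RNA that can bind the p53 regulator Mdm2. Rpl5 had 5.93, 6.36 and 6.16 in FAD DKO arrays, 6.45, 6.45 and 6.81 in FAD arrays, and 6.23, 6.44 and 6.70 in wild type arrays. The FAD DKO arrays lay below the FAD arrays and overlapped wild type, and FAD DKO minus FAD was -0.42 (SE 0.156, adjusted p = 0.542). Rpl11 had 6.01, 5.95 and 5.77 in FAD DKO arrays, 5.98, 5.98 and 5.97 in FAD arrays, and 6.12, 6.41 and 5.96 in wild type arrays. Its wild type arrays spread the most, and its differences from wild type were -0.25 (adjusted p = 0.62) for FAD DKO and -0.18 (adjusted p = 0.706) for FAD.

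The 23 small subunit genes had median differences of 0.19 for FAD DKO minus wild type, 0.15 for FAD minus wild type and 0.02 for FAD DKO minus FAD, with 19, 18 and 12 genes above 0. Rps4x, the X-linked copy of a small subunit protein, had 9.79, 9.75 and 9.78 in FAD DKO arrays, 9.85, 9.95 and 9.66 in FAD arrays, and 9.57, 9.43 and 9.37 in wild type arrays. No array with the FAD transgenes was as low as any wild type array. FAD minus wild type was 0.37 (SE 0.088, adjusted p = 0.319), the smallest adjusted p of a member in that comparison, and FAD DKO minus wild type was 0.32 (adjusted p = 0.331). Rps12 had 11.38, 11.41 and 11.43 in FAD DKO arrays, 11.31, 11.35 and 11.25 in FAD arrays, and 11.26, 11.05 and 11.01 in wild type arrays. The FAD DKO arrays were the highest, and wild type replicate 1 lay just above the lowest FAD array. FAD DKO minus wild type was 0.30 (SE 0.0794, adjusted p = 0.296) and FAD minus wild type was 0.20 (adjusted p = 0.573).

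Rps16, whose tail reaches the tRNA in the peptidyl site, had the largest FAD minus wild type difference of the 70 genes, 0.55 (SE 0.181, adjusted p = 0.502), on a signal below the median. It had 4.98, 4.91 and 5.06 in FAD DKO arrays, 5.26, 4.91 and 5.28 in FAD arrays, and 4.51, 4.26 and 5.02 in wild type arrays, so wild type replicate 3 overlapped the other groups. Rps9 had the lowest FAD values of its subunit relative to wild type, with 11.44, 11.26 and 11.08 in FAD DKO arrays, 11.14, 10.89 and 10.99 in FAD arrays, and 11.43, 11.15 and 11.12 in wild type arrays. The FAD minus wild type difference was -0.23 (adjusted p = 0.667) and the FAD DKO minus FAD difference 0.26 (adjusted p = 0.631), with overlapping arrays in both. The other Rps9 probe set, of mean signal 10.49, had differences of -0.0018 and -0.0079, so the Rps9 differences rest on the brighter probe set alone. Rps6, the protein that S6 kinases phosphorylate when mTOR is active, had 11.05, 11.06 and 11.12 in FAD DKO arrays, 11.03, 11.07 and 10.91 in FAD arrays, and 11.02, 10.87 and 10.80 in wild type arrays. FAD DKO lay above wild type in all arrays, by 0.18 (SE 0.0789, adjusted p = 0.61).

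The P stalk, which recruits the translation factors that use GTP, consists of Rplp0 as the base and of Rplp1 and Rplp2 as the arms. Rplp0 had 8.16, 7.78 and 7.75 in FAD DKO arrays, 7.93, 7.81 and 7.79 in FAD arrays, and 7.82, 7.66 and 7.39 in wild type arrays. Rplp1, the member with the brightest probe set, had 12.19, 12.26 and 12.20 in FAD DKO arrays, 11.97, 12.19 and 12.05 in FAD arrays, and 11.81 to 12.10 in wild type arrays. For Rplp2, 4.75, 4.75 and 4.55 in FAD DKO arrays stood against 5.07, 4.88 and 4.84 in FAD arrays and 4.72, 5.06 and 4.79 in wild type arrays. The arms of the stalk thus had opposite signs: FAD DKO minus FAD was 0.15 (adjusted p = 0.685) for Rplp1 and -0.24 (adjusted p = 0.618) for Rplp2, whose signal lay below the median. FAD DKO minus wild type was 0.27 (adjusted p = 0.663) for Rplp0 and 0.25 (adjusted p = 0.502) for Rplp1.

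**Figure D3:**
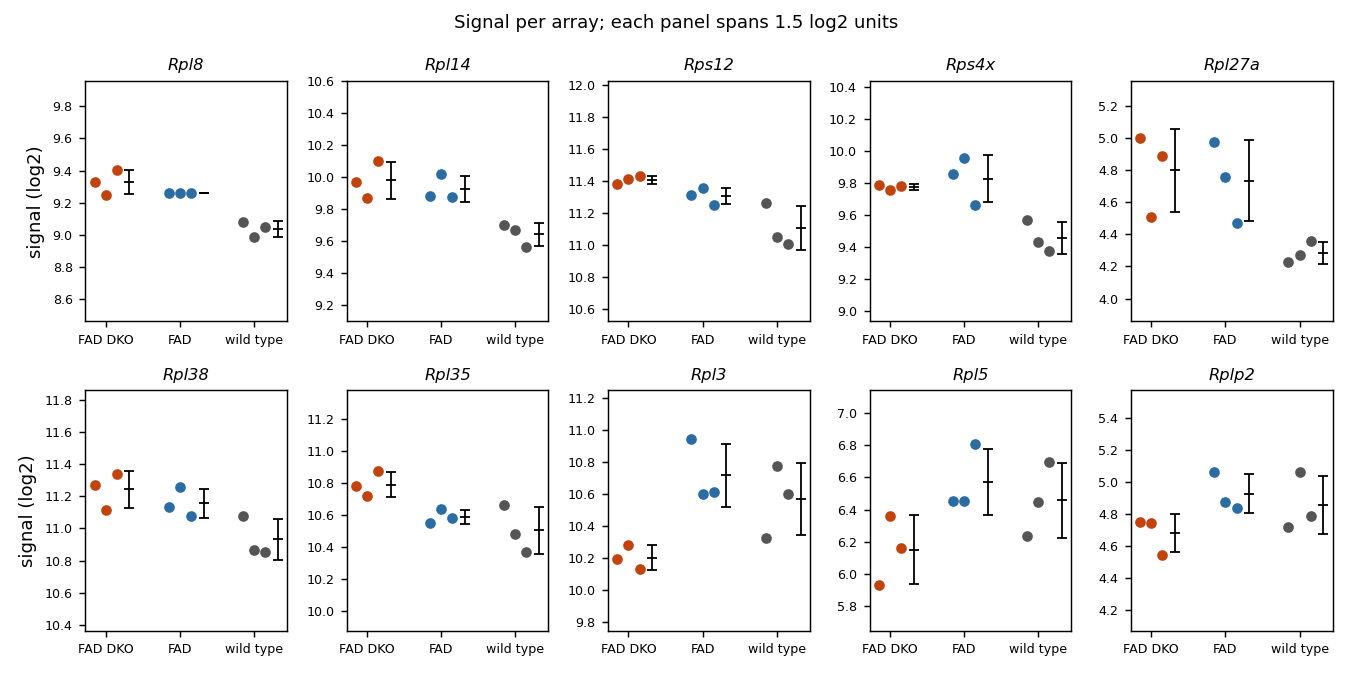
Points are the log2 signals of single arrays for 10 genes in FAD DKO, FAD and wild type microglia, with the mean and SD of each group (n = 3) beside them; all panels span the same log2 range from different starting values. Rpl8, Rpl14, Rps4x and Rpl27a lie above wild type in every FAD DKO and FAD array, whereas Rpl3, Rpl5 and Rplp2 are lower in every FAD DKO array than in any FAD array.

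The 7 paralogues did not follow the other genes in sign, with median differences of -0.05 for FAD DKO minus wild type, -0.08 for FAD minus wild type and -0.08 for FAD DKO minus FAD, and 3, 2 and 2 genes above 0. The difference between paralogues and ribosomal proteins was not tested. Rps4l, a copy of the Rps4x protein on an autosome, had 6.10, 5.96 and 6.19 in FAD DKO arrays, 6.25, 6.21 and 6.42 in FAD arrays, and 6.72, 6.22 and 6.22 in wild type arrays. Its FAD DKO arrays were the lowest of all, by -0.30 from wild type (adjusted p = 0.621) and -0.21 from FAD (adjusted p = 0.703). Rpl22l1, the paralogue of Rpl22, had 5.15, 5.15 and 5.07 in FAD DKO arrays, 5.15, 5.18 and 5.15 in FAD arrays, and 5.35, 5.15 and 5.28 in wild type arrays, and FAD DKO minus wild type was -0.14 (adjusted p = 0.659). Rps27l, which p53 induces, had 6.52, 6.56 and 6.73 in FAD DKO arrays, 6.76, 6.98 and 6.60 in FAD arrays, and 6.54, 6.61 and 6.61 in wild type arrays. Its FAD DKO minus FAD difference was -0.18 (adjusted p = 0.668), and the arrays overlapped. Rpl7l1 differed by 0.06 between FAD DKO and wild type (adjusted p = 0.956). Rpl3l, a form of heart and skeletal muscle, and Rpl10l and Rpl39l, forms of the testis, differed from wild type by 0.01, -0.10 and -0.05 in FAD DKO and by -0.08, -0.00 and -0.11 in FAD. Rpl10l (9-array mean 2.53) and Rpl32l (2.07), 1 of the 4 other copies, had the dimmest probe sets of the 70 genes. Rps19bp1, a cofactor of the deacetylase SIRT1, differed by 0.03 between FAD DKO and wild type and by 0.09 between FAD and wild type.

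Rpl3, which lies next to the peptidyl transferase centre, had the lowest p of any member in FAD DKO minus FAD. It had 10.19, 10.28 and 10.13 in FAD DKO arrays, 10.94, 10.60 and 10.61 in FAD arrays, and 10.33, 10.77 and 10.60 in wild type arrays. All FAD DKO arrays lay below all others. FAD DKO minus FAD was -0.51 (SE 0.131, unadjusted p = 0.00352, adjusted p = 0.35) and FAD DKO minus wild type was -0.36 (adjusted p = 0.493). This brightest of its 3 probe sets (mean 10.50) stands in identifier order between Snord83b and Snord43, small nucleolar RNAs encoded in introns of Rpl3. Snord43 differed by -0.57 (adjusted p = 0.229) and Snord83b by -0.54 (adjusted p = 0.3) between FAD DKO and FAD. The other Rpl3 probe sets, with means of 7.53 and 5.13, differed by 0.21 and 0.09, and the dimmer of them also stands beside Snord83b in identifier order. The lower Rpl3 signal in FAD DKO thus rests on 1 of 3 probe sets.

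Probe sets that list several symbols were not assigned to a gene and are described here as groups. The 9 that list a ribosomal protein together with a small nucleolar RNA had a median FAD DKO minus FAD difference of -0.21, with 0 above 0 and 9 below. The 48 that list a ribosomal protein without one had a median of 0.0093, with 26 above 0. Over 73 genes of small nucleolar RNAs the median was -0.21, with 13 above 0. Whether these probe sets measure the mRNA, its introns or the small RNA was not given in the sources used here. The 13 probe sets of 1 ribosomal protein symbol that stand beside a small nucleolar RNA gene in identifier order had a median of 0.04, with 8 above 0, so most of these were not lower in FAD DKO.

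The FAD DKO minus wild type difference depended on which probe set stood for a gene. For 20 of the 70 genes the most frequent chromosome among the identifiers around the brightest probe set was not the gene's own. Rpl35, Rpl21, Rpl19, Rplp0, Rps6 and Rpsa were among them. That chromosome held 45% of the neighbours for Rpl35, Rpl7 and Rps18 and 55% for Rps24, so these stand among mixed chromosomes. Rpl4 was counted at its own chromosome with 35%. The most frequent neighbouring chromosome was the own one for 99.1% of the other named probe sets. Ribosomal protein genes have many processed copies across the genome. All 20 of these genes were above 0 in FAD DKO minus wild type (median 0.23) and in FAD minus wild type (median 0.17), and 16 in FAD DKO minus FAD (median 0.06). Of the other 50 genes 36, 36 and 23 were above 0, with medians of 0.09, 0.10 and -0.003.

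For 16 of the 20 genes a probe set among identifiers of the own chromosome was also present, with a median signal of 5.68 against 10.39 for the brightest. The own-chromosome signals ran from 3.25 to 8.01, and some lay below the array median of 5.354, where little can be read from a difference. In the own-chromosome probe sets the median FAD DKO minus wild type difference was -0.01, against 0.23 in the brightest, with 7 against 16 genes above 0. Whether low signal accounts for the smaller differences was not tested. FAD minus wild type had a median of 0.08 against 0.20, and FAD DKO minus FAD -0.05 against 0.06. With own-chromosome probe sets for all genes that have one, 66 genes remained and the medians were 0.07 for FAD DKO minus wild type, 0.09 for FAD minus wild type and -0.01 for FAD DKO minus FAD. Under that rule Rpl21, as well as Rpl35, turned sign between FAD DKO and FAD, at -0.21 against 0.11 in the brightest probe set. The own-chromosome probe set of Rpl21 had a mean signal of 5.63. Its remaining probe set, of mean signal 11.47, differed by 0.10. Among the 25 genes with several probe sets, all probe sets of a gene had the same sign for 14 genes in FAD DKO minus wild type, 18 in FAD minus wild type and 9 in FAD DKO minus FAD. The positions of the probes were not given in the sources used here.

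**Figure D4:**
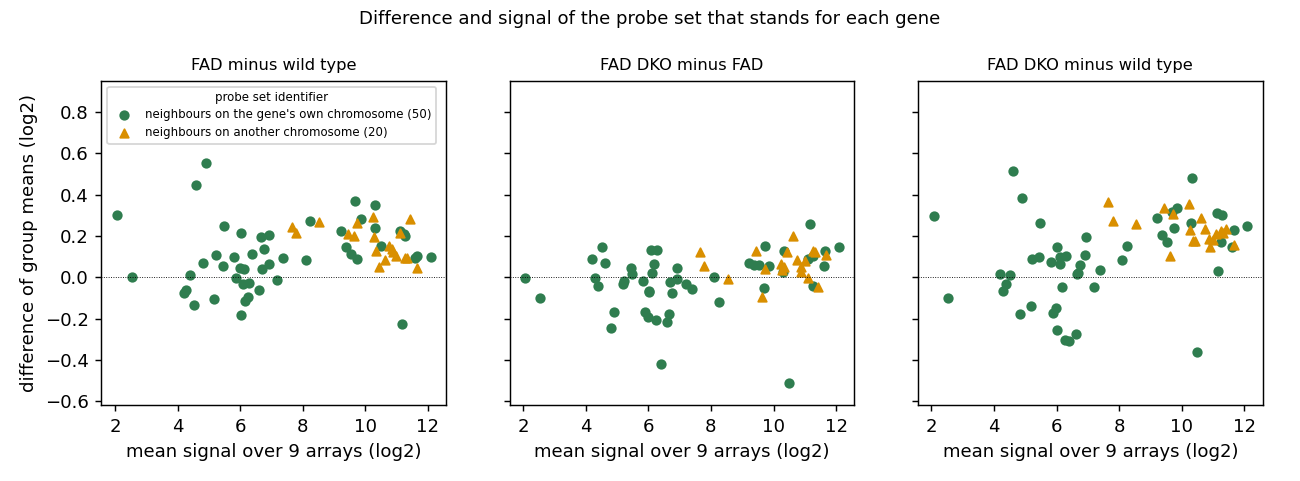
The difference of group means (log2, vertical axis) is plotted against the mean signal over 9 arrays (log2) of each gene's brightest probe set. By the most frequent chromosome among the identifier neighbours, 50 genes stand at their own chromosome and 20 at another. The 20 lie above 0 in both comparisons with wild type and have mean signals toward the bright end, with medians of 0.17 in FAD minus wild type and 0.23 in FAD DKO minus wild type.

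Genes that work beside the ribosomal proteins were read in the same fit, and 0 of them were called in limma in any of the 3 comparisons. The 24 measured genes of other RNAs known to start with a TOP motif mostly encode translation factors. They also include Snhg1 and Snhg5, host genes of small nucleolar RNAs. Median differences of the 24 were 0.12 for FAD DKO minus wild type, 0.12 for FAD minus wild type and -0.03 for FAD DKO minus FAD. In the same order 19, 24 and 8 were above 0. At an unadjusted p under 0.05, 6 of the 24 were higher and 1, Snhg1, was lower in FAD DKO than in wild type. At that p, 6 had higher FAD than wild type signals, and 2, Snhg1 and Snhg5, were lower in FAD DKO than in FAD. Over all genes these shares were 3.95% and 4.19%, 4.41%, and 4.41%. Eef1b2, a subunit of the elongation factor that reloads eEF1A, differed by 0.31 between FAD and wild type (SE 0.0866, adjusted p = 0.426). Snhg1, a host gene of small nucleolar RNAs, differed by -0.55 between FAD DKO and FAD (SE 0.115, adjusted p = 0.248). Fau, whose protein is cleaved into a small subunit protein, differed by 0.19 between FAD DKO and wild type (adjusted p = 0.615).

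Ribosome biogenesis factors, which make and process the ribosomal RNA in the nucleolus, stood apart in direction from the ribosomal proteins between FAD DKO and FAD, a difference that was not tested. Of 46 measured factors 5 were above 0 and 41 below, with a median of -0.12, and 18 were lower at an unadjusted p under 0.05. FAD minus wild type had a median of 0.14, with 40 above 0 and 13 higher at an unadjusted p under 0.05, and the FAD arrays enter both comparisons. Over all genes 4.41% were lower between FAD DKO and FAD, and 4.41% higher between FAD and wild type, at that p. FAD DKO minus wild type, which leaves them out of the difference, had a median of -0.04 with 16 above 0. Gnl3, the nucleolar GTPase nucleostemin, differed by -0.57 between FAD DKO and FAD (SE 0.116, adjusted p = 0.241) and by 0.50 between FAD and wild type (adjusted p = 0.291). Nop56, a core protein of box C/D small nucleolar particles, differed by -0.32 (adjusted p = 0.259) and 0.26 (adjusted p = 0.374). Polr1a, the largest subunit of RNA polymerase I, differed by -0.35 between FAD DKO and FAD (adjusted p = 0.275).

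The 71 mitochondrial ribosomal proteins, which serve a separate ribosome, had medians of 0.0046 for FAD DKO minus wild type, 0.07 for FAD minus wild type and -0.05 for FAD DKO minus FAD, with 39, 55 and 23 above 0. At an unadjusted p under 0.05, 0 of them differed between FAD DKO and wild type, 5 were higher and 1 lower in FAD than in wild type, and 2 were higher and 7 lower in FAD DKO than in FAD. Over all genes 4.41% were higher and 4.02% lower between FAD and wild type, and 3.69% higher and 4.41% lower between FAD DKO and FAD. Between FAD DKO and wild type 3.95% of all genes were higher and 4.19% lower. Of 16 measured regulators of ribosomal protein synthesis (mTOR, 4E-BP, LARP1 and Myc among them) 5, 10 and 3 were above 0, with medians of -0.04, 0.01 and -0.05. Myc, which drives ribosome production, differed by -0.28 between FAD DKO and FAD (adjusted p = 0.615). Larp4, an RNA-binding protein that stabilises mRNAs, differed by -0.21 between FAD DKO and FAD (adjusted p = 0.453) and by 0.26 between FAD and wild type (adjusted p = 0.374). The 14 ribosomal protein pseudogene symbols had medians of 0.18, 0.09 and 0.05, with 11, 11 and 10 above 0. Their probe sets may share sequence with the parent mRNAs, which was not tested.

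**Figure D5:**
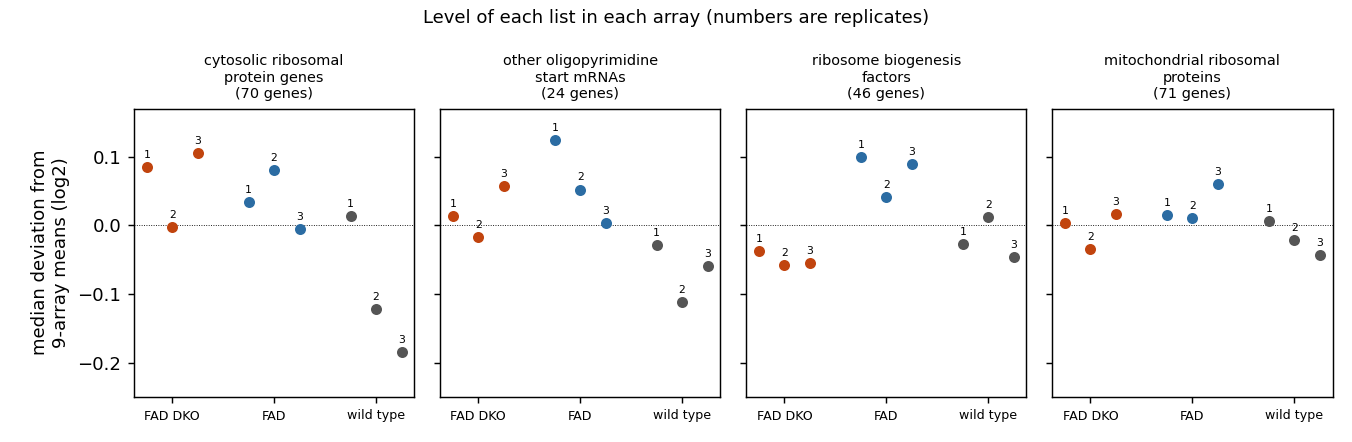
Each point is 1 array, numbered by replicate, and gives the median deviation (log2) of a gene list from the genes' own 9-array means in FAD DKO, FAD and wild type microglia. For the 70 cytosolic ribosomal protein genes wild type replicates 2 and 3 are the lowest arrays, at -0.122 and -0.185, whereas for the 46 ribosome biogenesis factors the FAD arrays lie above all others.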

How the data were processed

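Microglial RNA was measured on 9 arrays, 3 each of FAD DKO, FAD and wild type. The deposited table gives a log2 signal for each probe set. RMA made these values, per the submitters' processing notes, with a software version and annotation that were not given in the sources used here. Total RNA was amplified before labelling, per the labels' protocols. Precision is limited by the number of arrays, and scanner signals were not used here. The smallest SD of the difference between 2 arrays was 0.335 (log2), so no array repeated another. The table held 41345 probe sets and 0 further columns of samples. A probe set table named 25335 of them, 23521 with 1 gene symbol, 1814 with several, and 16010 were unnamed; 23328 of those with 1 symbol matched the RefSeq table of GRCm38.p6 by gene identifier.

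The probe set with the highest 9-array mean stood for each gene. With lmFit and eBayes of limma 3.58.1 (R 4.3.3), a linear model fitted all 9 arrays with a mean per group, which left 6 residual degrees of freedom. P-values are two-sided and Benjamini-Hochberg adjusted over 22180 genes, with calls at an adjusted p under 0.05. The script was tested on simulated data with 200 changed genes and the genes' own means and spreads. There 7.33% to 13.3% of genes changed 1.25-fold were called, and 83.3% to 90.7% of those changed 2-fold. The absence of calls thus says little about differences as small as those seen here. The members and gene lists were chosen with earlier results of these data known. Lists are described by counts and medians beside those over all genes, without a test of the list. Identifier order was read from the 20 nearest named probe sets, by their most frequent chromosome.

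Named genes were the 6 members with the smallest p in each direction per comparison, the 5 brightest and 5 dimmest, the paralogues, Rps19bp1, Rpsa, the P stalk, Rps6, Rpl5 and Rpl11, up to 3 genes per neighbour list and comparison, and Hdac1, Hdac2 and Cx3cr1. The text uses a part of these. Rpl19, Snord43 and Snord83b were named after their values were seen. Alternatives were a low-signal filter, quantile normalization, median centring, a trended and robust variance, a fit of only the compared groups, weights for arrays, averaging the probe sets of a gene, a test of every probe set, a block for the replicate number, and leaving each array out in turn. Own-chromosome probe sets and ribosomal proteins alone were added after seeing the data, as were the counts above 0 and at an unadjusted p under 0.05 in each alternative.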

Additional observations from a re-analysis of the deposited data

How the results depend on the processing

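All 3 counts of called members stayed at 0 in every alternative and with any array left out, except that FAD DKO minus wild type gave 1 call, Rpl8 (difference 0.29, adjusted p = 0.043), with a trended and robust variance; the cause was not tested. With any array left out, the median difference of the members ran between 0.126 and 0.211 for FAD DKO minus wild type, 0.0786 and 0.17 for FAD minus wild type, and 0.00584 and 0.0569 for FAD DKO minus FAD. In the same fits Rpl3l (-0.124 to 0.00961) and Rps4l (-0.18 to 0.0665) turned sign in FAD minus wild type, without FAD replicate 3 and without wild type replicate 1. With own-chromosome probe sets, added after seeing the data, the FAD DKO minus wild type median was 0.0697, and FAD DKO minus FAD turned to -0.237 for Rpl35 and -0.213 for Rpl21. With a gene's probe sets averaged, Rpl21 was at -0.0018. These alternatives use other probe sets for the same gene, and the own-chromosome ones had mean signals of 4.47 for Rpl35 and 5.63 for Rpl21. Quantile normalization gave medians of 0.145, 0.0941 and 0.0415, and median centring 0.163, 0.128 and 0.0117, for FAD DKO minus wild type, FAD minus wild type and FAD DKO minus FAD. Members at an unadjusted p under 0.05 numbered 12 to 33, 7 to 25 and 2 to 5 with an array left out.

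With the replicate number as a block, 0 members were called, the medians were 0.162, 0.109 and 0.03, and 21, 11 and 3 members had an unadjusted p under 0.05. Deviations of arrays with the same number correlated by -0.11 to 0.122 over genes. Arrays with different numbers were not set against these, so whether the numbers pair the samples is not settled. Another background correction and a block for slide or scan date were not run, since the values carry neither. Signal over background was not analysed, and 11 members lay below the median signal.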
